A study of Mus musculus with 3 samples.

Results

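Intermediate filaments, lamins and the plakin proteins that tie filaments together are encoded here by 8 genes, taken by symbol from the deposited count tables. They are vimentin (Vim), nestin (Nes), lamin A/C (Lmna), the B-type lamins Lmnb1 and Lmnb2, and the cytolinkers plectin (Plec), dystonin (Dst) and Macf1. All 8 were found among the 41743 symbols of the tables, and 17575 symbols were counted at least once. The RNA came from K7M2, a mouse osteosarcoma cell line derived from bone, and was recovered by immunoprecipitation (RIP-seq) with an antibody to ezrin (2 libraries, ezrin IP replicates 1 and 2) or with normal mouse IgG (1 library, IgG IP). All 3 libraries share 1 genotype and no treatment: the endogenous ezrin gene was disrupted by CRISPR/Cas9 and the cells were stably transfected with cDNA for T567A ezrin, a form that cannot be phosphorylated at that residue and stays largely closed. The IgG library is therefore the background of the pull-down and not a control genotype. Whether the line was 1 clone, and whether the replicates were separate cultures, the labels leave unsaid, so p-values measure only the spread between these samples, which may be technical. The title of the series puts RNA binding by closed ezrin as its question.

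Vimentin is the main cytoplasmic intermediate filament of mesenchymal cells, and nestin is a larger filament protein that assembles together with it. Lamins form the meshwork under the inner nuclear membrane. Lamin A precursor and the B-type lamins are farnesylated at their C-terminus, and lamin A is then cut free by the protease ZMPSTE24. Plectin binds intermediate filaments, actin and integrins, while dystonin and MACF1 are spectraplakins that join actin to microtubules. The measurement was of the messenger RNAs of these proteins in the pulled-down material.

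The libraries held 19676595 and 16196329 counts with the ezrin antibody and 10124580 with IgG. They differed in composition. Ribosomal RNA remnants, 7SL, 7SK, RNase P, RNase MRP and mitochondrially encoded genes took 1.18% and 0.708% of counts in ezrin IP replicates 1 and 2 and 23.0% in IgG IP, so how a library is scaled bears on each comparison. Markers of osteoblasts and osteosarcoma, a list chosen here, were only partly detected in the pull-downs. Of 9 such markers 6 had at least 10 counts in all 3 libraries (Runx2, Alpl, Col1a1, Col1a2, Spp1 and Sparc). Of these Alpl was low, with 28 and 17 counts in the ezrin libraries and 33 in IgG. Ibsp was at 0 throughout, and Sp7 and Bglap each had 1 count in 1 library. The 9 markers summed to 545 and 492 RPKM in the ezrin libraries and 222 RPKM in IgG. Epithelial markers summed to at most 0.145 RPKM in any library, muscle markers to at most 0.0803, endothelial markers to at most 0.292 and neural markers to at most 1.51. Macrophage markers summed to 140 and 130 RPKM in the ezrin libraries and 139 RPKM in IgG, nearly all of it Csf1r, with Ptprc and Adgre1 at 0. The message of ezrin itself, Ezr, was at 349 and 350 CPM in the ezrin libraries and 155 CPM in IgG, and counts cannot separate transgene from endogenous transcript.

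Vim, Lmna, Lmnb1 and Lmnb2 were higher with the ezrin antibody, Plec was lower, and Nes, Dst and Macf1 were not called. Calls came from edgeR's quasi-likelihood test across 12478 genes, with Benjamini-Hochberg adjustment at 0.05. Thus 4 of 8 were higher, where 19.0% of all tested genes were called higher, and 1 of 8 was lower, where 17.4% were. In either direction 36.4% of all genes were called. In the most abundant decile of tested genes by mean CPM, which held 6 of the 8, 43.3% were called higher and 14.4% lower. In CPM (counts per 1e6 in the library, after TMM scaling in edgeR), 5 of the 8 lay above IgG in both ezrin libraries, as did 42.6% of all genes, and 3 lay below in both, as did 44.3%. The median log2 fold of the 8 was 0.39, and −0.02 for all tested genes. Each library holds RNA recovered with an antibody, so a fold compares recovery in the pull-down and not the level of a message in the cells. With 1 IgG library, an exact permutation over the 3 samples has 3 assignments and cannot reach the threshold, and edgeR assumes that IgG varies like the ezrin libraries.

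**Figure D1:**
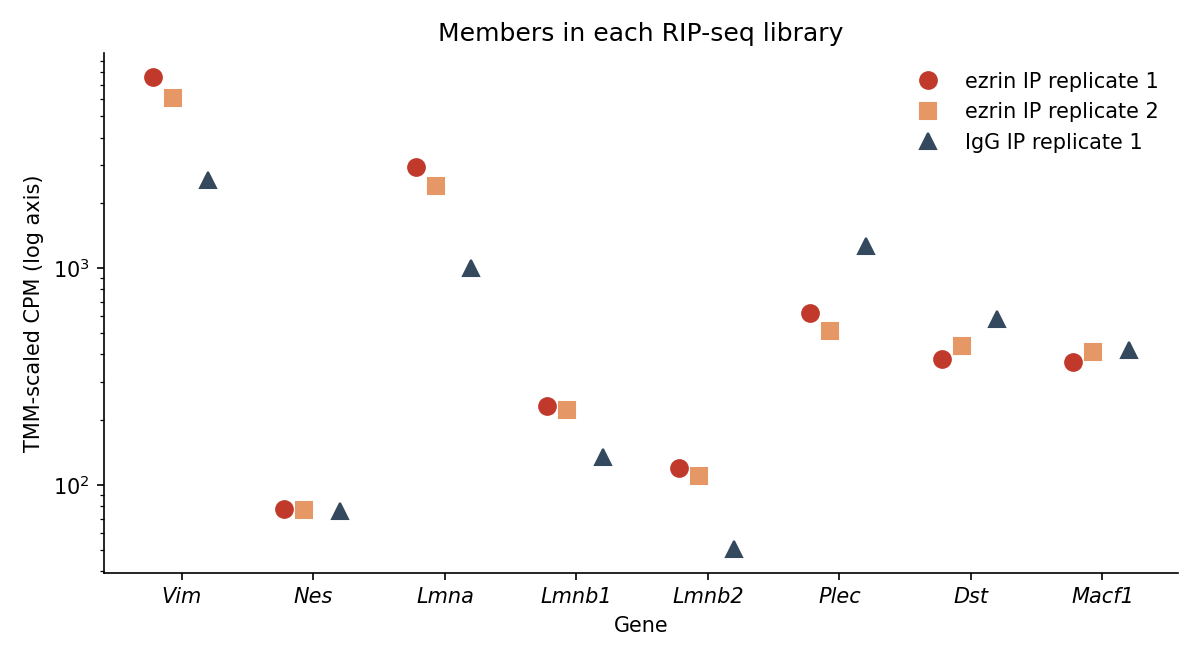
TMM-scaled CPM (log axis) of the 8 genes in each library, with circles for ezrin IP replicate 1, squares for ezrin IP replicate 2 and triangles for IgG IP. The ezrin points of Vim, Lmna, Lmnb1 and Lmnb2 lie above the triangle, those of Plec and Dst lie below it, and those of Nes and Macf1 lie close to it.

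Vimentin and lamin A/C were by far the most abundant of the 8. Vim (chromosome 2, 13574311 to 13582826, GRCm38) had 7633 and 6107 CPM in ezrin IP replicates 1 and 2, against 2543 CPM in IgG IP. Both ezrin libraries exceeded IgG, and the gap was larger than the difference between them. The fold was 2.70 (log2 fold 1.43, SE 0.20, edgeR adjusted p = 3.59e-11). In raw counts Vim ranked 2nd and 3rd among all genes in the ezrin libraries and 14th in IgG. Its share of the library was 0.778% (95% exact binomial interval 0.775 to 0.782) in ezrin IP replicate 1, 0.632% (0.629 to 0.636) in replicate 2 and 0.240% (0.237 to 0.243) in IgG IP. Such intervals cover counting error only. Raw ranks and shares are also not scaled for composition. The structural and mitochondrial RNA named above took 1.18% and 0.708% of counts in ezrin IP replicates 1 and 2 and 23.0% in IgG IP.

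Lmna (chromosome 3, 88481148 to 88509932), whose message is spliced to give lamin A or lamin C, had 2915 and 2379 CPM in the ezrin libraries, against 1006 CPM in IgG. The groups did not overlap, and the fold was 2.63 (log2 fold 1.40, SE 0.22, edgeR adjusted p = 5.74e-09). Vim and Lmna kept nearly the same proportion to each other in every library. Their ratio in RPKM (counts per 1000 bases and 1e6 reads) was 3.22 and 3.16 in the ezrin libraries and 3.11 in IgG. Such a ratio within a library does not depend on how libraries are scaled to each other. The tables count genes and not isoforms, so lamin A and lamin C were not separated.

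The B-type lamins were also higher. Lmnb2 (chromosome 10, 80901363 to 80918245) had 120 and 110 CPM in the ezrin libraries, against 50.8 CPM in IgG, a fold of 2.26 (log2 fold 1.18, SE 0.26, edgeR adjusted p = 4.39e-05). Its 486 counts in IgG were the fewest of any of the 8 in any library, with an exact Poisson 95% interval of 444 to 531. Lmnb1 (chromosome 18, 56707813 to 56753424) had 231 and 222 CPM, against 134 CPM in IgG, a fold of 1.69 (log2 fold 0.75, SE 0.24, edgeR adjusted p = 0.00759). For both genes the 2 ezrin values lay close together and above IgG. The ratios between lamins varied: the Lmna to Lmnb1 ratio in RPKM was 6.39 and 5.44 in the ezrin libraries and 3.80 in IgG. The Lmna to Lmnb2 ratio was 17.9 and 15.9 in the ezrin libraries and 14.5 in IgG. Whether the folds of the lamins differ from each other was not tested.

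Nestin, unlike vimentin, was not called. Nes (chromosome 3, 87971093 to 87980451) had 77.3 and 77.1 CPM in the ezrin libraries, against 75.8 CPM in IgG. The 3 values were almost equal (log2 fold 0.03, edgeR adjusted p = 0.942). The approximate 95% interval of its fold ran from 0.733 to 1.42, which leaves room for a modest difference in either direction. The ratio of Vim to Nes in RPKM was 134 and 107 in the ezrin libraries, against 45.4 in IgG.

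Plectin went the other way. Plec (chromosome 15, 76170974 to 76231378) had 624 and 512 CPM in the ezrin libraries, against 1268 CPM in IgG. Both ezrin libraries lay well below IgG, by more than their own difference, and the message was 2.23-fold lower (log2 fold −1.16, SE 0.21, edgeR adjusted p = 4.64e-07). By raw count Plec ranked 203rd and 260th in the ezrin libraries and 32nd in IgG. It supplied 5.05% and 4.99% of the counts of the 8 genes in the ezrin libraries, against 20.9% in IgG. The ratio of Vim to Plec in RPKM was 46.7 and 45.6 in the ezrin libraries, against 7.66 in IgG, and that of Lmna to Plec was 14.5 and 14.4, against 2.46. Both ratios lay close together in the ezrin libraries and far from IgG.

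The spectraplakins were nearer to the background. Dst (chromosome 1, 33907888 to 34308662) had 382 and 438 CPM in the ezrin libraries, against 584 CPM in IgG. Both ezrin values were below IgG, and the gene narrowly missed the threshold (log2 fold −0.51, SE 0.22, edgeR adjusted p = 0.0507). Macf1 (chromosome 4, 123349633 to 123687802) had 371 and 412 CPM in the ezrin libraries, against 418 CPM in IgG, and replicate 2 was almost at the IgG value. It was not called (log2 fold −0.09, edgeR adjusted p = 0.770), with an approximate 95% interval of its fold from 0.693 to 1.27. The ratio of Plec to Macf1 in RPKM was 3.01 and 2.22 in the ezrin libraries and 5.43 in IgG, and that of Dst to Macf1 was 0.802 and 0.827, against 1.09. Among genes whose spans overlap a member, only Gm26788 and Bend6 had counts, and both overlap Dst. The others had no count in any library or were absent from the deposited counts. Within Dst, the noncoding gene Gm26788 had 5 and 13 counts in the ezrin libraries and 70 in IgG, and Bend6, which touches its edge, had 213 and 192 against 143, where Dst had 7671 and 7345 against 5584. Strand use in counting is not stated, so reads of overlapping genes cannot be told apart.

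Levels can be set against each other between genes only per length. In RPKM the order was the same at the top in every library, with Vim first, at 1230 ± 171 (SD, n = 2) in ezrin IP and 348 in IgG IP, and Lmna second, at 385 ± 48.1 in ezrin IP and 112 in IgG IP. Lmnb1 came next in ezrin IP, at 65.0 ± 0.748 RPKM, followed by Plec at 26.6 ± 3.24 RPKM, whereas in IgG IP Plec at 45.4 RPKM stood above Lmnb1 at 29.5 RPKM. Lmnb2 had 22.8 ± 0.916 RPKM in ezrin IP and 7.69 RPKM in IgG IP, where it was no longer above Macf1 and Dst. In ezrin IP, Macf1 at 10.3 ± 0.952 and Nes at 10.2 ± 0.176 RPKM had no order beyond their spread, and both libraries put Dst lowest, at 8.38 ± 0.958 RPKM. In IgG IP Macf1 had 8.37, Nes 7.67 and Dst 9.10 RPKM. Plec and Lmnb2 were near each other in ezrin IP, at 28.9 and 24.3 RPKM for Plec in replicates 1 and 2 and 23.4 and 22.1 RPKM for Lmnb2, narrowly without overlap.

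Abundance in CPM went together with the folds across all genes, and most of the 8 genes had a high CPM. Among 12478 tested genes the Spearman correlation of log2 fold with mean CPM was 0.261. It is across genes, which share the same 3 libraries and are not independent replicates. Mean CPM was taken over these same libraries, of which 2 are ezrin IP. A gene higher in ezrin IP thereby gains mean CPM, so part of the relation is built in. How large that part is was not tested. The median log2 fold was −0.81 in the least abundant decile of genes and 0.38 in the most abundant decile, where 43.3% of genes were called higher and 14.4% lower. Of the 8 genes, 6 were in that most abundant decile: Vim (7th by mean CPM), Lmna (19th), Plec (112th), Dst, Macf1 and Lmnb1. Vim, Lmna and Lmnb1 lay above the decile’s median and Plec, Dst and Macf1 below it. Lmnb2, in the decile below, lay above that decile’s median of 0.21, and Nes, in the one below that, lay under a median of 0.10. Mean CPM is not divided by length, and per length the long genes Dst and Macf1 ranked near Nes. In ezrin IP replicates 1 and 2 and IgG IP, Dst ranked 4717th, 4266th and 3295th by RPKM. Macf1 ranked 4053rd, 3735th and 3517th, and Nes 3926th, 3883rd and 3761st.

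Cyclic loess, which removes any trend of fold with expression level, changed most the folds of the members with the highest CPM. Vim then had a log2 fold of 0.42 and no longer passed (edgeR adjusted p = 0.0662), and Lmna had 0.61 and still passed (adjusted p = 0.0135). Lmnb1 had 0.47 and did not pass (adjusted p = 0.115), while Lmnb2 kept its call at 1.03 (adjusted p = 4.98e-04). Plec was then lower by more, at −1.73 (adjusted p = 5.99e-15), and the spectraplakins passed on the lower side, Dst at −0.97 (adjusted p = 7.01e-05) and Macf1 at −0.53 (adjusted p = 0.0478). Vim, Lmna, Lmnb1 and Lmnb2 stayed above 0, and Plec and Dst below 0, under each of the 11 alternatives that gave a test.

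**Figure D2:**
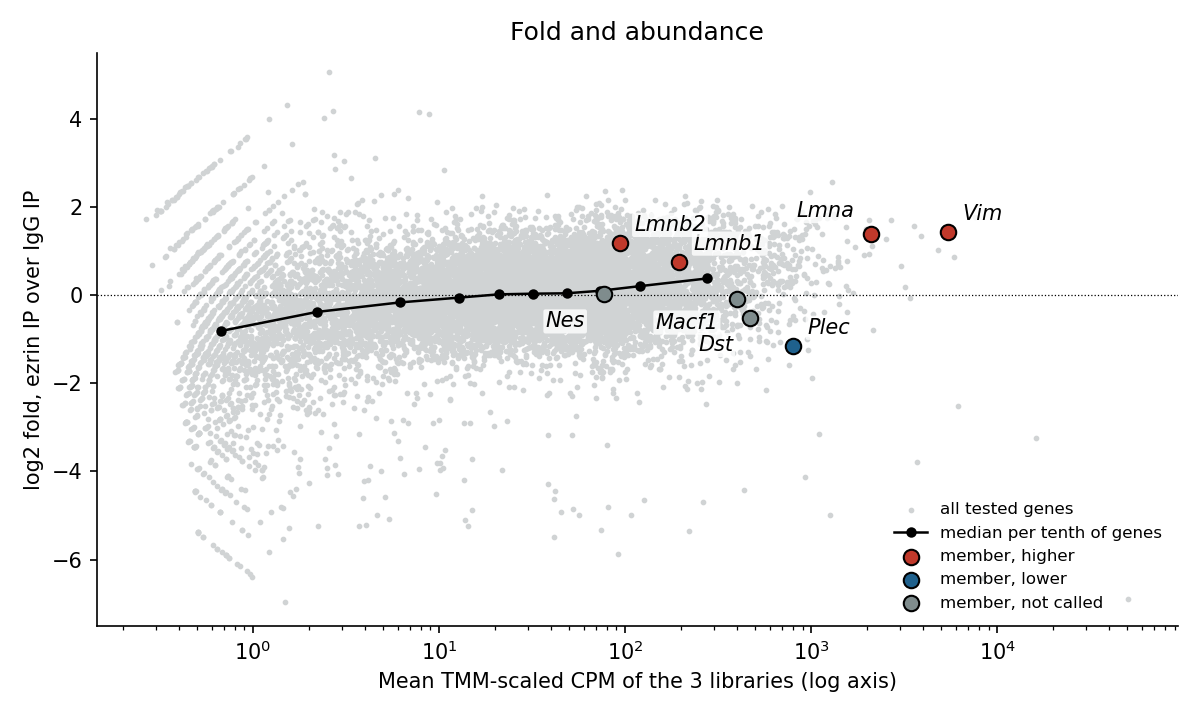
Log2 fold of ezrin IP over IgG IP against mean TMM-scaled CPM (log axis), with all 12478 tested genes in grey and the 8 genes coloured by their call. The black line joins the median fold of each decile of genes, placed at the decile’s median CPM, and climbs with abundance while Plec, Dst and Macf1 lie below it.

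Length set the cytolinkers apart from the rest. The length used in counting, recovered from count over RPKM, was 2962 bases for Lmnb1, 4286 for Lmnb2, 4743 for Vim, 5838 for Lmna and 6416 for Nes. It was 18113 bases for Plec, 32385 for Macf1 and 41619 for Dst, which puts these 3 in the longest decile of tested genes. In that decile (9852 bases or more) the median log2 fold was −0.26, with 12.5% of genes higher and 25.4% lower. Across all genes the Spearman correlation of log2 fold with length was −0.0512, a weak relation overall. Among the 143 genes at least as long as Plec, 12 were higher (8.39%) and 43 lower (30.1%), with a median of −0.40. Plec, at a mean CPM of 801, had the 21st lowest fold of these. The genes with lower folds included scarce ones, such as Gm8251 (mean CPM 0.594) and Neb (0.466). They also included better counted ones, such as Rc3h2 (68.4) and Zfhx3 (190).

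Subtracting a smooth trend of fold on length, which is a value with no test, took Plec to −0.85, Dst to 0.04 and Macf1 to 0.38. It left Vim at 1.37, Lmna at 1.37, Lmnb2 at 1.11, Lmnb1 at 0.66 and Nes at 0.03. The trend itself was −0.55 at the length of Dst and −0.30 at that of Plec. It was fitted only to the edgeR folds with TMM scaling. Length is not the only property in which Plec, Dst and Macf1 differ from the filament genes. Whether length or any other such property accounts for their values was not tested.

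**Figure D3:**
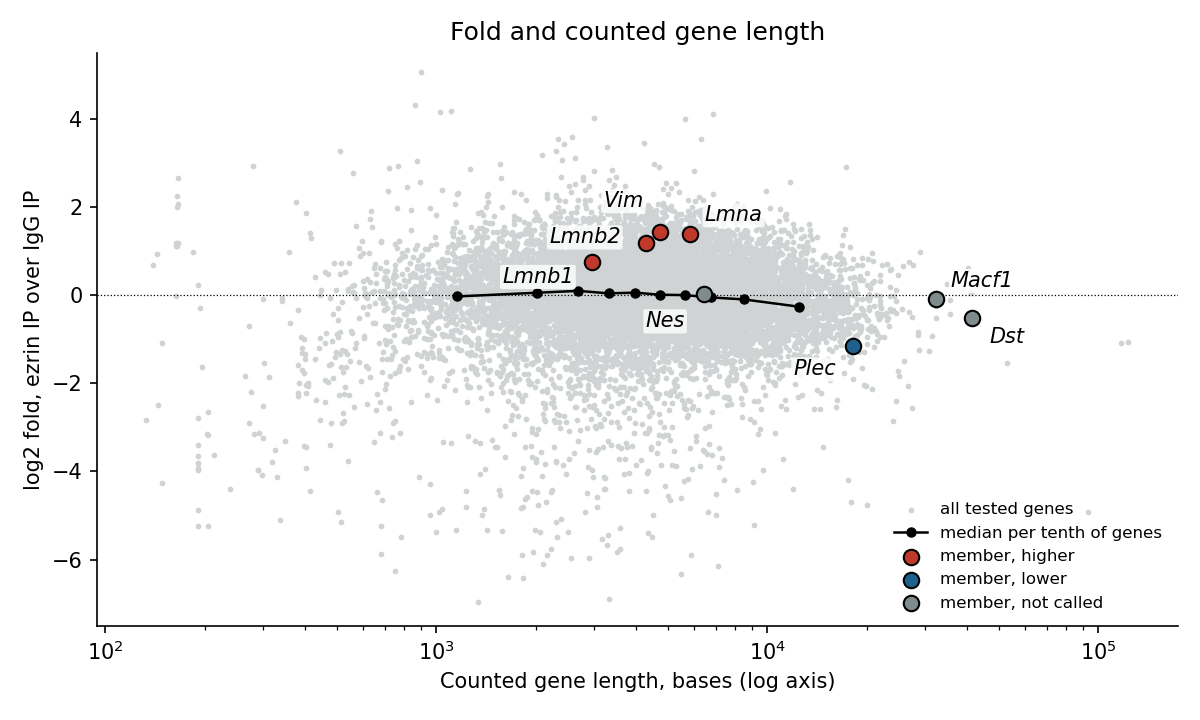
Log2 fold of ezrin IP over IgG IP against the gene length used in counting (bases, log axis), with all 12478 tested genes in grey and the 8 genes coloured by their call. The black line joins the median fold of each decile of genes, which is lowest (−0.26) in the longest decile, where Plec, Dst and Macf1 lie.

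Messages of proteins that act with these 8 were mostly not called, as were most of all tested genes. Of 48 related genes in 5 lists, 31 were tested, of which 4 were higher, 2 were lower and 25 were not called. Their median log2 fold was −0.01. Over all tested genes 19.0% were higher, 17.4% lower and 36.4% called in either direction, the shares to set beside each list. Other intermediate filament genes were scarce. Of 19, only 5 were tested, and edgeR called 0 of them (1 at an unadjusted p under 0.05, 0 with DESeq2). Krt80, a keratin, was the most abundant of them per length, at 29.1 and 17.9 CPM in the ezrin libraries and 32.1 CPM in IgG. Synm, whose protein synemin joins vimentin filaments, was at 30.9 and 31.9 CPM, against 31.1 CPM. Synm was singled out after its values were seen. Of the other 4 plakins, Ppl and Eppk1 were tested, and edgeR called 0 of them (0 at an unadjusted p under 0.05, 0 with DESeq2). Ppl, which encodes periplakin, had 1.79 and 1.85 CPM in the ezrin libraries, against 3.34 CPM in IgG, from 36, 31 and 32 counts (log2 fold −0.87, SE 0.52, edgeR adjusted p = 0.184). The median log2 fold of the 2 plakins was −0.97.

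Of the 6 calls, 5 were in the longer list of lamin-binding proteins and the LINC complex, which spans the nuclear envelope and links lamins to the cytoskeleton. Of 13 tested genes there, 3 were higher, 2 lower and 8 not called, with a median of −0.16, a share of calls near the 36.4% over all tested genes. Sun2, an inner membrane protein that binds lamin A, had 148 and 133 CPM in the ezrin libraries, against 75.8 CPM in IgG (log2 fold 0.89, SE 0.25, edgeR adjusted p = 0.00193). Its paralog Sun1 had 46.4 and 52.2 CPM, against 28.4 CPM (log2 fold 0.79, edgeR adjusted p = 0.0100). Both were above IgG in each ezrin library. Their outer membrane partners, the nesprins, were not of one direction. Syne3, the nesprin that binds plectin, was lower, with 46.4 and 37.0 CPM, against 76.2 CPM (log2 fold −0.87, edgeR adjusted p = 0.00180). Syne1 was higher (log2 fold 0.63, edgeR adjusted p = 0.0343), with a counted length of 40491 bases, and Syne2 was not called (−0.39). Tor1aip1, which encodes the lamin-binding protein LAP1, was lower (−0.64, edgeR adjusted p = 0.0213). Over the 11 alternatives with a test, Sun2 passed in 9, Sun1 and Syne3 in 8, Tor1aip1 in 5 and Syne1 in 4. With DESeq2 the calls of Syne1 (adjusted p = 0.0561) and Tor1aip1 (adjusted p = 0.0563) were lost, and with structural RNA left out of the library size those of Syne1 and Sun1 (adjusted p = 0.0842). Syne1, Syne2 and Tor1aip1 were singled out after their values were seen. Banf1, the most abundant of the list per length, was not called, at 181 and 167 CPM against 195 CPM.

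Of 5 tested enzymes that process lamins 1 was called, where 36.4% of all tested genes were. Fntb, the beta subunit of the farnesyltransferase that modifies lamin precursors, had 19.5 and 15.6 CPM in the ezrin libraries, against 8.57 CPM in IgG (log2 fold 1.03, SE 0.30, edgeR adjusted p = 0.00309). The call was lost with DESeq2 (adjusted p = 0.0631) and passed in 8 of the 11 alternatives. Fnta, the alpha subunit, had 108 and 103 CPM, against 71.1 CPM, and narrowly missed the threshold (log2 fold 0.57, edgeR adjusted p = 0.0550). Zmpste24, Icmt and Rce1 were not called. Of the 6 tested plakin partners at microtubule ends and hemidesmosomes, edgeR called 0 (1 at an unadjusted p under 0.05, 0 with DESeq2), among them Mapre1, which encodes the end-binding protein EB1, at 170 and 209 CPM against 172 CPM.

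**Figure D4:**
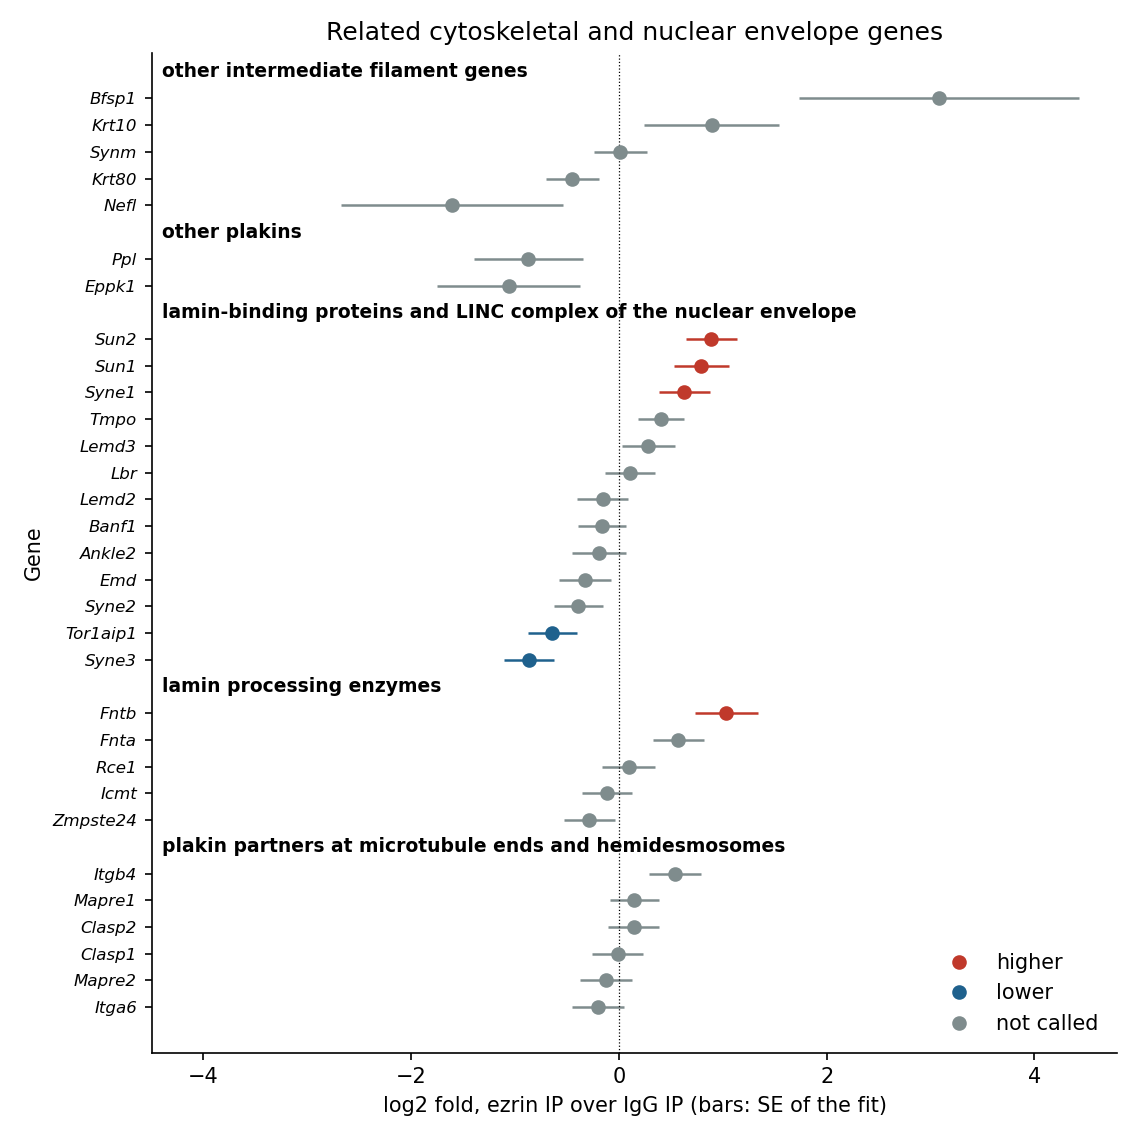
Log2 fold of ezrin IP over IgG IP (horizontal axis, bars are the SE of the fit) for the 31 tested related genes, grouped by list and coloured by call. Sun2, Sun1, Syne1 and Fntb are the higher calls, and Syne3 and Tor1aip1 the lower ones.

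For each of the 8 genes the other gene of most like values was sought over the 3 libraries, as the smallest Euclidean distance in log2(CPM + 1). For Lmna it was Col1a2, a collagen chain of bone matrix, at 2934 and 2249 CPM in the ezrin libraries and 1185 CPM in IgG (distance 0.250). For Vim it was Eef2 (0.405), for Lmnb1 Trrap (0.0374), for Lmnb2 Arfgap2 (0.0955), for Nes Stambpl1 (0.0570), for Dst Sept11 (0.107) and for Macf1 Ptges3 (0.0262). Plec had the most distant nearest gene, Fth1, a ferritin subunit, at 601 and 399 CPM against 1037 CPM (0.464). With 3 values per gene, of which 2 are replicates, such likeness reflects level and fold and nothing finer.

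**Figure D5:**
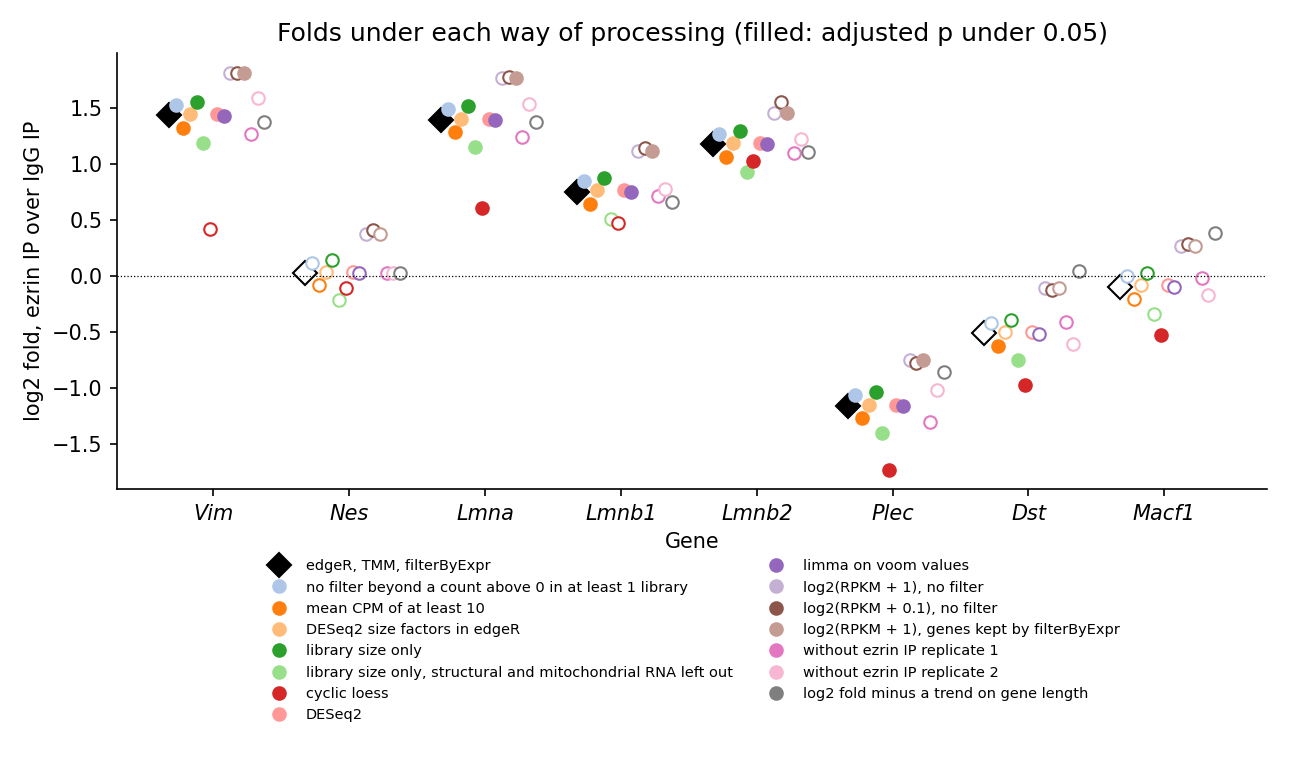
Log2 fold of ezrin IP over IgG IP for the 8 genes under the fit reported here (black diamonds) and under 14 other ways of processing (coloured points), with filled symbols for an adjusted p under 0.05. Open symbols also mark the 3 ways that give no test, and cyclic loess gives the lowest point for Vim, Lmna, Lmnb1, Plec, Dst and Macf1.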

How the data were processed

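RNA from 3 immunoprecipitations was sequenced after depletion of ribosomal RNA, per the labels' protocols, although the labels also name polyA RNA as the molecule. For each library the authors deposited 1 table of raw counts by gene symbol and 1 of RPKM. The submitters' processing notes name the build GRCm38. The sources used here do not give the aligner, counter, annotation or strand use. Coordinates are from a RefSeq table of GRCm38.p6. No sequences are printed, since no protein or transcript sequences of these genes were used here. Counted length was taken from count over RPKM, with 1 factor per library set on short RNA genes of known length.

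The deposited counts were tested with edgeR 4.0.16 (R 4.3.3): TMM, filterByExpr by group, quasi-likelihood test, Benjamini-Hochberg over 12478 genes, 1 residual degree of freedom moderated across genes. The prior degrees of freedom were infinite, so every gene took the spread pooled over genes. SE is the log2 fold over the square root of F, and intervals (±1.96 SE) are approximate. Alternatives used limma 3.58.1 and DESeq2 1.42.0. The members, gene lists and the rule for named genes were chosen with earlier results of these data known. That rule took the 8 genes, up to 3 called genes and the most abundant gene per related list, the gene nearest in pattern to each member, and Ezr.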

Additional observations from a re-analysis of the deposited data

How the results depend on the processing

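No paired analysis was possible because the groups share only 1 replicate number. Single ezrin libraries against IgG, a value with no test, gave medians of the 8 genes from 0.37 to 0.40. Across 11 alternatives with a test, Lmna, Lmnb2 and Plec passed in 9, Vim in 8, Lmnb1 in 7, Dst in 3, Macf1 in 1 and Nes in 0. Of the 8 genes (4 higher, 1 lower as reported), cyclic loess called 2 higher and 3 lower. A mean CPM of at least 10 called 2 lower (adding Dst), as did library size with structural and mitochondrial RNA left out, where Lmnb1 missed (adjusted p = 0.0763) and the median of all genes moved by −0.24. With limma on log2(RPKM + 1) or log2(RPKM + 0.1) and no filter, 0 of the 8, 0 of the related genes and 0 of all 17575 genes passed in either direction, while at an unadjusted p under 0.05 5 of the 8 were higher and 0 lower. On genes kept by filterByExpr, log2(RPKM + 1) called 4 higher and 1 lower and moved the median of all genes by 0.24. Of the calls over all genes 52.3% were higher as reported, 31.0% with structural RNA left out and 85.8% in that RPKM fit. DESeq2 called 2848 genes, against 4548 with edgeR.

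The median of the 8 (0.39) was 0.48 without a filter, 0.28 at a mean CPM of at least 10, 0.51 with library size only (which moved all genes by 0.12), 0.15 with structural RNA left out, 0.16 after cyclic loess, 0.745 with RPKM and a pseudocount of 1, with or without the filter, 0.78 with 0.1, and 0.52 minus the length trend. Nes and Macf1 changed sign: Nes was at −0.084, −0.22 and −0.10 at a mean CPM of at least 10, with structural RNA left out and after cyclic loess, and Macf1 (−0.09 as reported, −0.53 after cyclic loess) at 0.027 with library size only and 0.26, 0.29 and 0.26 in the RPKM fits. Related genes (4 higher, 2 lower as reported) gave 7 higher and 1 lower with library size only, 2 and 4 with structural RNA left out, 2 and 1 with DESeq2, and 7 and 0 in the filtered RPKM fit. The causes of these moves were not tested.

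There is a single IgG library, whose own spread is not measured.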

Other observations

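Of the 143 tested genes at least as long as Plec, only Ahnak, which encodes a very large membrane-associated scaffold protein, was more abundant by mean CPM, and it was not called (log2 fold −0.06, edgeR adjusted p = 0.824). Bfsp1, a filament protein of the eye lens, had 21 and 14 counts in the ezrin libraries and 1 count in IgG and did not pass (edgeR adjusted p = 0.0582). Both were picked out after their values were seen.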
